A study of Mus musculus with 9 samples.

Results

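The 50 genes described here are nuclear genes for the mitochondrial respiratory chain and ATP synthase, out of 49671 genes counted in the study. They were chosen by symbol, and each symbol matched 1 gene identifier of the count table through the GENCODE M21 annotation on mm10, with the ATP synthase genes listed under their older names (Atp5a1, Atp5b, Atp5c1, Atp5o). By complex they were 30 genes of complex I (6 core and 24 accessory subunits), 4 of complex II, 5 of complex III, 6 of complex IV, 4 of complex V and the electron carrier gene Cycs. Ndufa4 carries a complex I name but is counted with complex IV, to which its protein is now assigned. All 50 passed the filter on low counts. The smallest count of a member in a library was 178.

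RNA was sequenced from CD3+ T cells of the spleen of female F1 mice, in 3 groups of 3 libraries. The first group spent 48 hours in culture with 2.5 µM IMD-0354 and with antibodies to CD3 (bound to the plate) and CD28 (in solution). IMD-0354 is an inhibitor of the kinase IKK-beta, which acts upstream of NF-kB, and this group is called IMD-0354 cultures. The second had the same culture and antibodies without the inhibitor (stimulated cultures), and the third went from the enrichment column straight into lysis reagent (unstimulated cells). All 9 libraries came from the same cross, in which C57BL/6 mothers carrying 1 deleted Xist allele were mated with castaneus males, so the mice are a model of skewed X inactivation. The series title places the experiment in a study of NF-kB, Xist RNA and X inactivation in activated T cells. The labels call the libraries biological replicates without saying whether they came from separate mice, so the p-values reflect differences among these libraries that may in part be technical. No vehicle and no cultured cells without antibodies are named, so effects of culture and of stimulation cannot be told apart.

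Complexes I and II feed electrons from NADH and succinate into ubiquinone, complex III passes them to cytochrome c, and complex IV hands them to oxygen. Complexes I, III and IV pump protons across the inner mitochondrial membrane, and complex V uses the gradient to make ATP. Most subunits are made from nuclear genes and imported, while a few core subunits come from the mitochondrial genome. Naive T cells rely largely on oxidative phosphorylation, and activated T cells raise glycolysis and also enlarge their mitochondrial mass.

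Promoter sequence from RefSeq (GRCm38.p6) was at hand for 40 of the 50 members. The 4 windows printed here belong to members at the ends of the range of responses described further on. Atp5b had the highest level of the set per kilobase, Ndufb6 the largest increase of complex I after stimulation, Ndufv3 the largest decrease with IMD-0354 of all members, and Ndufs8 nearly equal levels with and without IMD-0354. Each is the 250 bases upstream of the annotated start, read 5′ to 3′ on the gene's strand, with matches to the searched motifs in capitals.
Atp5b, chr10:128083057-128083306, plus strand: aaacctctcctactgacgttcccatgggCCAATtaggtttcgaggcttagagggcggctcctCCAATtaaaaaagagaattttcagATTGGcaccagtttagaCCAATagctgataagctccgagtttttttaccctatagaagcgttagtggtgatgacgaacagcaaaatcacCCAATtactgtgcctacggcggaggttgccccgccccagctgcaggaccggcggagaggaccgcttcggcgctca
Ndufb6, chr4:40279422-40279671, minus strand: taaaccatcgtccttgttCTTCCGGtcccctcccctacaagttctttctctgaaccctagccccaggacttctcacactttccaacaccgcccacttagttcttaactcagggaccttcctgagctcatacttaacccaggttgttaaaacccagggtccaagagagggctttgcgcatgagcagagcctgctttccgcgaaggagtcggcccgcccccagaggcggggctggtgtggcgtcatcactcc
Ndufv3, chr17:31519865-31520114, plus strand: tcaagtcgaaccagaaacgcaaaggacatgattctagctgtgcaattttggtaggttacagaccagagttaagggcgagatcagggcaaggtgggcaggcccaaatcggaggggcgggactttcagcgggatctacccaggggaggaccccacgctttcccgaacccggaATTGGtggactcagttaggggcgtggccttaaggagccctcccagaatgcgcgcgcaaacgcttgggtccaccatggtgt
Ndufs8, chr19:3912775-3913024, minus strand: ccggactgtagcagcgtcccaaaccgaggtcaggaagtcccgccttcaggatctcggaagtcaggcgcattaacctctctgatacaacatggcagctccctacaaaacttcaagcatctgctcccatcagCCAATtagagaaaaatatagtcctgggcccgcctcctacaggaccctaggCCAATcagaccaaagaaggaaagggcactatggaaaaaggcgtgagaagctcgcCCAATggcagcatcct

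The searched motifs were the NRF1 core (GCGCAT followed by GCGC), the ETS core CCGGAAG, the E-box CACGTG, the CCAAT box CCAAT and a kappaB form (GGGAN followed by TTTCC), on both strands of windows that ran 250 bases before and 50 bases after the start. None of these motifs is contained in another. The RefSeq start of Atp5b lies downstream of the GENCODE start at 128083273, so the end of its printed window is exon in GENCODE. The capitals mark 5 CCAAT boxes for Atp5b, 1 reading on the opposite strand. Ndufs8 shows 3 CCAAT boxes, Ndufv3 shows 1 on the opposite strand and Ndufb6 shows 1 ETS core on the opposite strand. At least 5 CCAAT boxes were present in the windows of 84 of all 27025 genes with a window (0.311%). A CCAAT box was found in 14 of the 40 members with a window (35.0%), against 41.06% of all genes. The ETS core was found in 6 (15.0%), against 9.93% of all genes, and the E-box in 2 (5.0%), against 8.09%. The NRF1 core was found in Uqcrc1 alone (2.5%), against 1.07% of all genes, and the kappaB form in 0 of 40, against 0.47%. These matches are a description of letters in these windows, and binding was not measured.

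Total counts per library lay between 34009988 and 56221174. Levels are given as CPM (counts relative to the library total) scaled with TMM factors, which were computed here from the deposited raw counts. They are relative to the rest of each library, since the labels name no added standard. A member is said to have risen or fallen only where the edgeR quasi-likelihood test, fitted to all 18374 genes that passed the filter, gave a Benjamini-Hochberg adjusted p under 0.05, and fold changes are log2 values with an approximate SE. IMD-0354 library 1 stood apart from the other 8, with counts in 30106 genes against 20547 to 23223 and with -76.71 on the third principal component against 29.7 and 33.18 for the other IMD-0354 libraries. All 50 members were lowest in that library among the 3 of its group, and the members' counts of calls that involve the inhibitor are therefore also given without it. T cell markers summed to 2088 to 2177 CPM in IMD-0354 cultures, 2178 to 2366 CPM in stimulated cultures and 1815 to 2789 CPM in unstimulated cells, so the labelled cell type was present throughout.

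Relative to the rest of each library, RNA of nearly the whole set was higher in stimulated cultures than in unstimulated cells. The members together made up 5458 to 5680 CPM in stimulated cultures, against 1919 to 2132 CPM in unstimulated cells, a ratio of 2.71 between the means. Of the 50 members 48 rose and 0 fell, while 32.0% of all tested genes rose and 34.0% fell. The median log2 fold change was 1.34 over the members and -0.05 over all tested genes. An increase of at least 2-fold was called for 38 members, against 19.5% of all genes. All 3 stimulated libraries were above all 3 unstimulated libraries for 49 members, against 35.4% of all genes, and Ndufb10 was the exception. With IMD-0354 in the culture, the same RNAs stood between the other groups. Their sum was 2433, 3158 and 3447 CPM in IMD-0354 libraries 1 to 3, and the mean of these was 0.54 times that of stimulated cultures and 1.47 times that of unstimulated cells. Against stimulated cultures 39 members fell and 0 rose, beside 22.8% of all genes that fell and 21.7% that rose, with a median log2 fold change of -0.68 against 0.03 over all genes. A fall of at least 2-fold was called for 12 members, against 10.8% of all genes, and all 3 IMD-0354 libraries were below all 3 stimulated ones for 42 members, against 29.4%. Against unstimulated cells 32 members rose and 0 fell, beside 26.3% of all genes that rose and 26.1% that fell, with a median of 0.55 against -0.001 over all genes. All 3 IMD-0354 libraries were above all 3 unstimulated ones for 30 members, again beside 29.4% of all genes. Both comparisons with the inhibitor share its 3 libraries, and the 3 comparisons each share a group with the others.

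**Figure D1:**
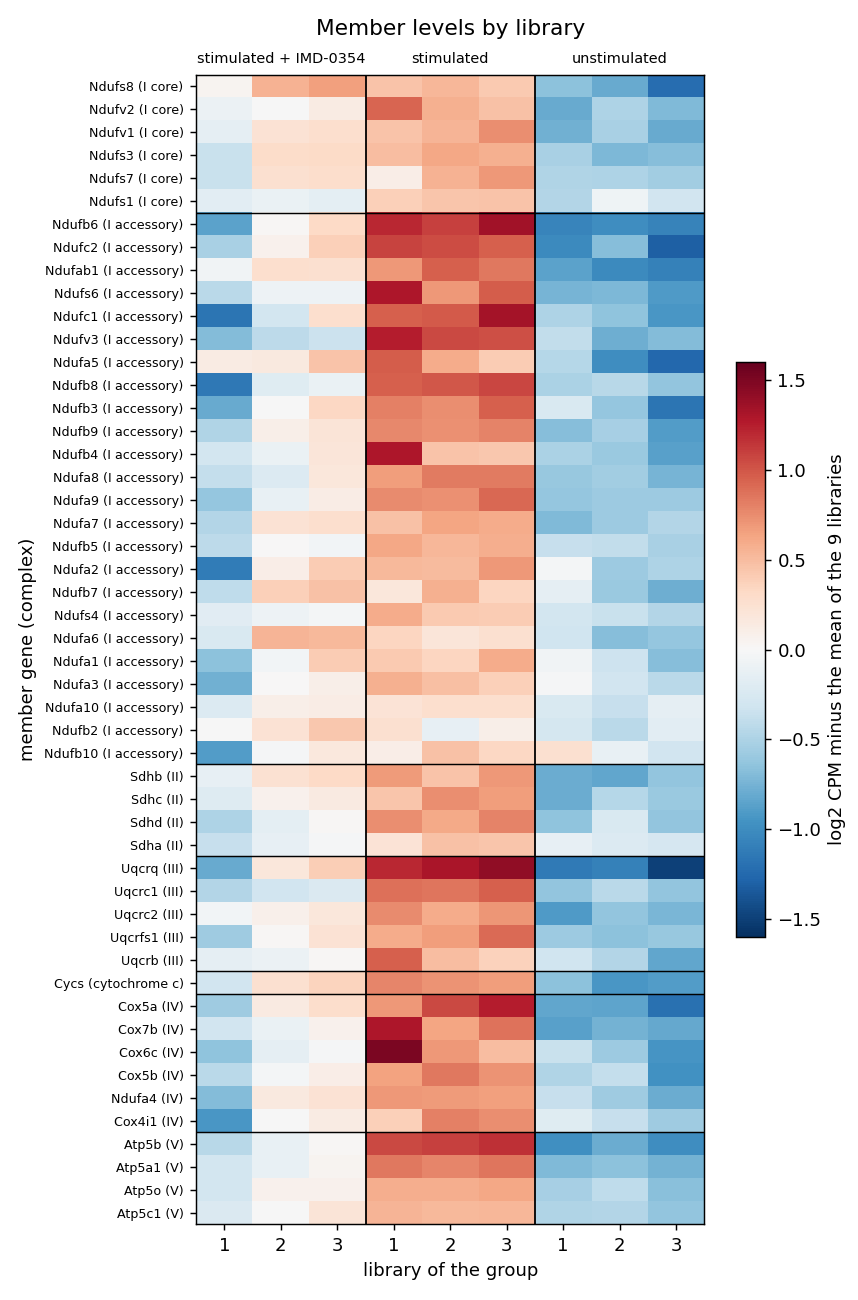
Level of each of the 50 members in each of the 9 libraries, as log2 CPM minus the member's mean over the 9 libraries (red above, blue below), with rows grouped by complex and columns grouped as IMD-0354, stimulated and unstimulated libraries 1 to 3. The 3 stimulated columns are red in nearly every row, and IMD-0354 library 1 is the lowest of its group in all 50 rows.

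The order of the groups was the same for most members. The stimulated mean was the highest of the 3 for 48 members, and the IMD-0354 mean lay between the other means for 47. It was the highest for Ndufa6 and Ndufb2 and the lowest for Ndufb10. In 25 members every stimulated library was above every IMD-0354 library and every IMD-0354 library above every unstimulated one, an order found for 11.1% of all genes. There were 39 members that rose with stimulation and fell with IMD-0354, a combination called for 17.1% of all genes. Of these, 25 were still higher in IMD-0354 cultures than in unstimulated cells (8.48% of all genes had all 3 calls), and for the other 14 the difference from unstimulated cells was not called. The remaining 9 that rose with stimulation were not called with IMD-0354 against stimulated cultures.

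Without IMD-0354 library 1, 36 members fell against stimulated cultures, with a median log2 fold change of -0.58, beside 20.2% of all genes that fell. In the same fit 42 were higher than in unstimulated cells, with a median of 0.71, beside 25.1% of all genes. Without IMD-0354 library 3, 42 fell (20.0% of all genes) and 22 were higher than in unstimulated cells (21.3% of all genes). Without IMD-0354 library 2 the count above unstimulated cells was 23, again beside 21.3% of all genes. The number of members above the unstimulated level with IMD-0354 thus depended on which of these libraries was used. The direction of the median did not change in any of these. By complex, without IMD-0354 library 1, the members that fell against stimulated cultures were 2 of the 6 core and 14 of the 24 accessory subunits of complex I and every member of complexes II (4), III (5), IV (6) and V (4), beside Cycs. Those above the unstimulated level without it were 5 core and 20 accessory subunits of complex I, 3 members of complex II, 4 of complex III, 5 of complex IV, all 4 of complex V and Cycs.

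Levels were compared between members per kilobase of exon, over the union of all annotated exons. On that scale Atp5b was the highest member in each group, at 144.6 CPM per kb in IMD-0354 cultures, 349.5 in stimulated cultures and 86.04 in unstimulated cells. Ndufb2 was the lowest, at 1.94, 1.75 and 1.35 CPM per kb in the same groups. Ranks on this scale depend on the length of the union, which was 5628 bases for Ndufb2. In CPM, Ndufb4 was below Ndufb2 in IMD-0354 cultures (7.01 against 10.9) and unstimulated cells (4.64 against 7.59). It was above Ndufb2 in stimulated cultures (12.5 against 9.84). The median member had 25.97 CPM per kb in IMD-0354 cultures, 40.72 in stimulated cultures and 14.68 in unstimulated cells. Without Atp5b and Atp5a1, the members summed to 2125 ± 393 CPM in IMD-0354 cultures, 3537 ± 58.3 in stimulated cultures and 1497 ± 87.5 in unstimulated cells (SD, n = 3 each), so the order of the groups did not rest on these 2 genes.

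**Figure D2:**
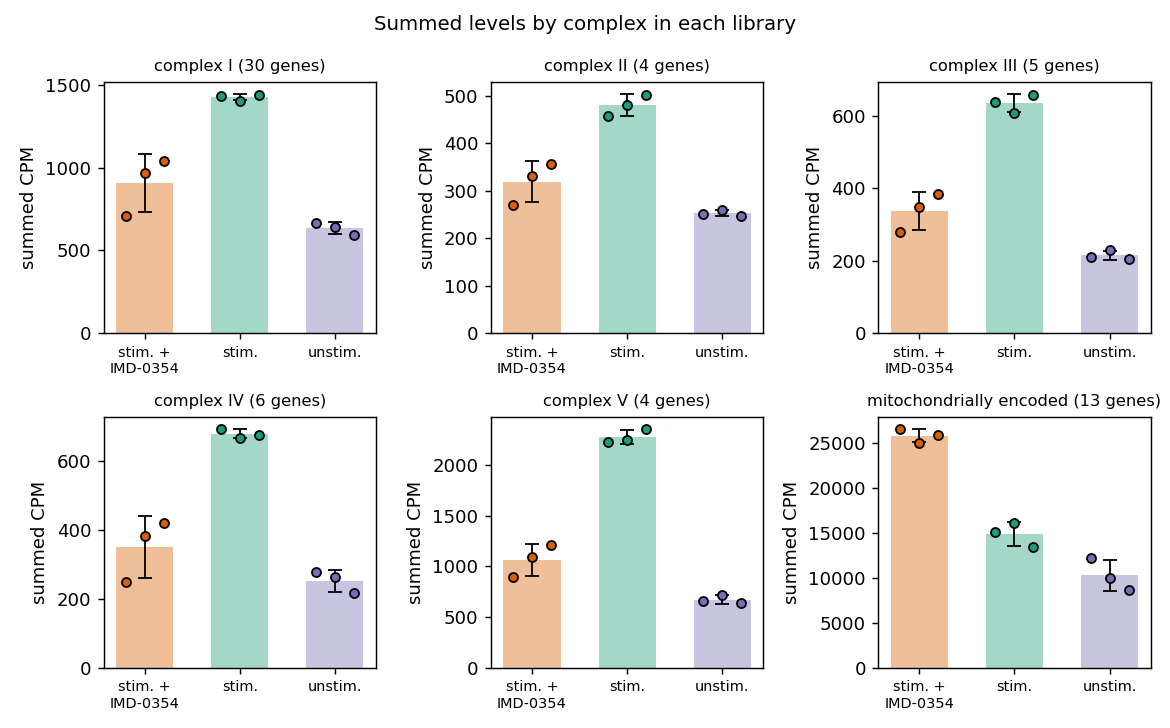
Summed CPM of the members of each complex and of the 13 mitochondrially encoded subunits in each library (points, libraries 1 to 3 from left to right), with the group mean as a bar and the SD as the error line, in panels with separate axes that start at 0. For each of complexes I to V the 3 stimulated libraries are above all others, while for the mitochondrially encoded genes the 3 IMD-0354 libraries, at 25054 to 26543 CPM, are above all others.

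Complex I, the entry point for electrons from NADH, summed to 906 ± 175 CPM over its 30 members in IMD-0354 cultures, 1427 ± 18.5 in stimulated cultures and 635 ± 35.3 in unstimulated cells. With stimulation 28 of its members rose, with a median log2 fold change of 1.30. With IMD-0354, 19 fell against stimulated cultures, with a median of -0.64, and 18 were higher than in unstimulated cells, with a median of 0.57. The 11 members not called with IMD-0354 against stimulated cultures all belonged to this complex. Whether the complexes differed in their response was not tested.

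The 6 core subunits include those that carry the flavin and iron-sulfur centres. All 6 rose with stimulation (median 1.24), 3 fell with IMD-0354 (median -0.45) and 5 were above the unstimulated level with the inhibitor (median 0.72). Ndufs8 (ENSMUSG00000059734, chromosome 19, 3908863 to 3912774, minus strand), an iron-sulfur subunit near the ubiquinone site, had 33.4, 47.8 and 51.0 CPM in IMD-0354 cultures, 44.6, 47.0 and 43.5 CPM in stimulated cultures and 20.6, 18.5 and 13.9 CPM in unstimulated cells. Both stimulated groups were above the unstimulated cells and overlapped each other. Its log2 fold change was 1.35 ± 0.18 for stimulated against unstimulated (edgeR adjusted p = 8.95e-05), -0.03 ± 0.18 for IMD-0354 against stimulated (adjusted p = 0.907) and 1.32 ± 0.18 for IMD-0354 against unstimulated (adjusted p = 0.000167). Ndufs1, the largest core subunit, had 64.9, 68.1 and 65.5 CPM in IMD-0354 cultures, 95.1, 99.5 and 101 CPM in stimulated cultures and 53.0, 69.9 and 59.2 CPM in unstimulated cells. It rose by 0.70 ± 0.10 with stimulation, the smallest change of the core subunits, and with IMD-0354 it fell by 0.57 to levels that overlapped those of unstimulated cells (0.12 ± 0.10, adjusted p = 0.326). Without unstimulated library 2, the highest of its group, this difference was called (0.23, adjusted p = 0.0454).

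Ndufv2, an iron-sulfur subunit of the NADH-oxidising module, had 54.6, 57.7 and 63.7 CPM in IMD-0354 cultures, 111, 86.0 and 80.2 CPM in stimulated cultures and 33.3, 41.2 and 35.6 CPM in unstimulated cells, with no overlap between any of the groups. It had the largest fall of a core subunit with IMD-0354 in the full fit, at -0.65 ± 0.13. Leaving out single libraries put this fall between -0.75 and -0.51, and that of Ndufs1 between -0.60 and -0.56, so the rank was not stable. Ndufs3 and Ndufs7, which lie with Ndufs8 in the arm that binds ubiquinone, rose with stimulation by 1.20 ± 0.17 and 0.99 ± 0.19. With IMD-0354 they were at 17.1, 26.7 and 26.9 CPM (Ndufs3) and 21.7, 33.2 and 33.8 CPM (Ndufs7), against 30.6, 33.4 and 32.3 CPM and 30.0, 41.2 and 45.2 CPM in stimulated cultures. For Ndufs3 the 3 IMD-0354 libraries were below the stimulated ones and the log2 fold change of -0.45 ± 0.17 had an adjusted p of 0.0505 (edgeR). The adjusted p ranged from 0.0224 to 0.121 over the alternatives, on both sides of the threshold, and without IMD-0354 library 1 the value was -0.26 (adjusted p = 0.0948). For Ndufs7 the groups overlapped (-0.39 ± 0.19, adjusted p = 0.122). Its value was -0.55 without stimulated library 1, where the call was made (adjusted p = 0.0435), and -0.21 without IMD-0354 library 1. The call was also made without a filter on low counts (-0.42, edgeR adjusted p = 0.04).

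Of the 24 accessory subunits, which surround the core and are needed for assembly and stability, 22 rose with stimulation (median 1.40), 16 fell with IMD-0354 (median -0.69) and 13 were above the unstimulated level with it (median 0.52). The last count was 20 without IMD-0354 library 1, 8 without library 2 and 7 without library 3, when the median was 0.31. Ndufb6, of the membrane arm, had 10.0, 18.4 and 22.6 CPM in IMD-0354 cultures, 42.1, 38.9 and 46.0 CPM in stimulated cultures and 8.76, 9.09 and 8.69 CPM in unstimulated cells, and its libraries did not overlap between groups. It rose by 2.26 ± 0.25 with stimulation, the largest change of complex I. The values of Ndufv3 (ENSMUSG00000024038, chromosome 17, 31520115 to 31531331, plus strand), of the NADH-oxidising module, were 26.6, 32.2 and 33.8 CPM in IMD-0354 cultures, 103, 89.2 and 87.7 CPM in stimulated cultures and 32.6, 24.9 and 26.5 CPM in unstimulated cells. The inhibitor cultures overlapped the unstimulated cells and lay far below the stimulated cultures. Its change with IMD-0354, -1.59 ± 0.13 (edgeR adjusted p = 1.32e-05), was the largest fall of all 50 members, after a rise of 1.73 ± 0.13 with stimulation, and against unstimulated cells it was 0.14 ± 0.13 (adjusted p = 0.402). The 6 accessory subunits that fell at least 2-fold with IMD-0354 also included Ndufb6 (-1.32 ± 0.24), Ndufb8 (-1.41 ± 0.22) and Ndufc1 (-1.38 ± 0.30). Ndufb8 and Ndufc1 had risen by 1.53 and 1.78 with stimulation.

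A few accessory subunits took another course. Ndufb2 had 9.27, 10.9 and 12.6 CPM in IMD-0354 cultures, 11.1, 8.51 and 9.89 CPM in stimulated cultures and 7.64, 6.86 and 8.26 CPM in unstimulated cells. Its change with stimulation (0.37 ± 0.16, edgeR adjusted p = 0.0675) and with IMD-0354 against stimulated cultures (0.15 ± 0.16, adjusted p = 0.481) was not called, and the IMD-0354 cultures were above the unstimulated cells (0.53 ± 0.16, adjusted p = 0.0212). That call was lost without IMD-0354 library 2 (adjusted p = 0.0595) or 3 (adjusted p = 0.0946) and without unstimulated library 1 (adjusted p = 0.0531) or 2 (adjusted p = 0.0615). Ndufb10 was the only member whose stimulated and unstimulated libraries overlapped, with 23.8, 30.7 and 27.9 CPM in stimulated cultures and 26.5, 20.4 and 17.9 CPM in unstimulated cells. It was at 11.9, 21.9 and 25.0 CPM in IMD-0354 cultures, and none of its 3 comparisons was called. Without a filter on low counts its fall against stimulated cultures was called (-0.51, edgeR adjusted p = 0.0213). Ndufa6, a subunit that binds the acyl carrier protein, had 32.1, 55.2 and 54.4 CPM in IMD-0354 cultures, 48.1, 43.2 and 45.1 CPM in stimulated cultures and 30.4, 23.6 and 24.7 CPM in unstimulated cells. IMD-0354 libraries 2 and 3 were above, and library 1 below, the 3 stimulated ones (0.06 ± 0.19, adjusted p = 0.836).

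Ndufb7 and Ndufa10 were also not called with IMD-0354 against stimulated cultures (-0.18 ± 0.23, edgeR adjusted p = 0.573, and -0.26 ± 0.10, adjusted p = 0.0671). For Ndufa10 all 3 IMD-0354 libraries were below the stimulated ones, and DESeq2 called the fall (-0.26, adjusted p = 0.0444). Ndufb7 had 19.7, 33.9 and 36.0 CPM in IMD-0354 cultures, 29.5, 38.8 and 33.1 CPM in stimulated cultures and 23.6, 17.3 and 15.2 CPM in unstimulated cells. Ndufa10 had 65.2, 81.0 and 82.7 CPM in IMD-0354 cultures, 89.1, 92.1 and 92.1 CPM in stimulated cultures and 64.5, 59.0 and 69.0 CPM in unstimulated cells, so its stimulated libraries were the highest but its rise, 0.51 ± 0.10, was the smallest called. Ndufab1, the mitochondrial acyl carrier protein, rose by 1.82 ± 0.13 with stimulation and stayed 1.15 ± 0.12 above the unstimulated level with IMD-0354.

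Complex II, succinate dehydrogenase, is an enzyme of both the respiratory chain and the tricarboxylic acid cycle and has no mitochondrially encoded subunit. Its 4 members summed to 319 ± 43.8 CPM in IMD-0354 cultures, 481 ± 23.0 in stimulated cultures and 252 ± 6.38 in unstimulated cells. All 4 rose with stimulation (median 1.22) and all 4 fell with IMD-0354 (median -0.58), and 2 were above the unstimulated level with it. Sdha, the flavoprotein, had 127, 150 and 162 CPM in IMD-0354 cultures, 192, 227 and 223 CPM in stimulated cultures and 150, 142 and 136 CPM in unstimulated cells. The IMD-0354 cultures lay on both sides of the unstimulated cells, and their difference was 0.04 ± 0.10. Sdhb, the iron-sulfur subunit, had 67.8, 87.9 and 92.3 CPM in IMD-0354 cultures, 119, 101 and 120 CPM in stimulated cultures and 42.7, 41.8 and 47.7 CPM in unstimulated cells. Here the IMD-0354 cultures were above the unstimulated cells in all 3 libraries, by 0.91 ± 0.12 (edgeR adjusted p = 0.000174). Its fall against stimulated cultures, -0.46 (adjusted p = 0.0131), was lost without stimulated library 3 (adjusted p = 0.0522). Sdhd, a membrane anchor, had 35.6, 44.9 and 50.7 CPM in IMD-0354 cultures, 83.4, 76.0 and 87.0 CPM in stimulated cultures and 31.8, 42.3 and 32.2 CPM in unstimulated cells. It had the largest fall of the complex with IMD-0354, at -0.91 ± 0.15.

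Complex III, the cytochrome bc1 complex, summed to 338 ± 52.7 CPM over 5 members in IMD-0354 cultures, 635 ± 25.0 in stimulated cultures and 215 ± 12.3 in unstimulated cells. All 5 rose with stimulation by at least 2-fold (median 1.43), all 5 fell with IMD-0354 (median -0.80) and 4 were above the unstimulated level with it, or 2 without IMD-0354 library 2 or 3 or unstimulated library 3. Uqcrq (ENSMUSG00000044894, chromosome 11, 53427922 to 53430831, minus strand), a small subunit next to cytochrome b, had 29.2, 57.7 and 67.3 CPM in IMD-0354 cultures, 118, 127 and 137 CPM in stimulated cultures and 23.3, 24.0 and 18.2 CPM in unstimulated cells. The 3 groups did not overlap, and IMD-0354 library 1 was the nearest of its group to the unstimulated cells. Its rise with stimulation, 2.54 ± 0.26 (edgeR adjusted p = 1.51e-05), was the largest of the 50 members. Uqcrc2, a core protein without redox centre, had 117, 128 and 137 CPM in IMD-0354 cultures, 204, 182 and 197 CPM in stimulated cultures and 64.6, 78.2 and 72.8 CPM in unstimulated cells. The inhibitor cultures were well separated from both other groups (-0.61 ± 0.09 against stimulated, 0.83 ± 0.09 against unstimulated). Uqcrb, which takes part in ubiquinone binding, had 30.9, 31.9 and 34.7 CPM in IMD-0354 cultures, 66.3, 48.2 and 44.1 CPM in stimulated cultures and 27.3, 24.7 and 19.2 CPM in unstimulated cells. Stimulated library 1 was the highest for this gene, and the rise of 1.16 ± 0.17 was the smallest of the complex. Its call above the unstimulated level with IMD-0354 (0.46, edgeR adjusted p = 0.0474) was lost on leaving out any single IMD-0354 library, unstimulated library 2 or 3, or stimulated library 2 (adjusted p between 0.0594 and 0.149). Uqcrc1, the other core protein, rose by 1.46 ± 0.09 and fell by 1.23 with IMD-0354.

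Cycs (ENSMUSG00000063694, chromosome 6, 50562563 to 50566538, minus strand), cytochrome c, which carries electrons from complex III to complex IV and also acts in apoptosis once released, had 25.7, 38.0 and 40.7 CPM in IMD-0354 cultures, 54.5, 52.1 and 50.6 CPM in stimulated cultures and 20.1, 16.7 and 17.1 CPM in unstimulated cells. The groups did not overlap. Its log2 fold change was 1.54 ± 0.16 for stimulated against unstimulated (edgeR adjusted p = 1.81e-05), -0.59 ± 0.16 for IMD-0354 against stimulated (adjusted p = 0.0133) and 0.95 ± 0.16 for IMD-0354 against unstimulated (adjusted p = 0.00071).

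**Figure D3:**
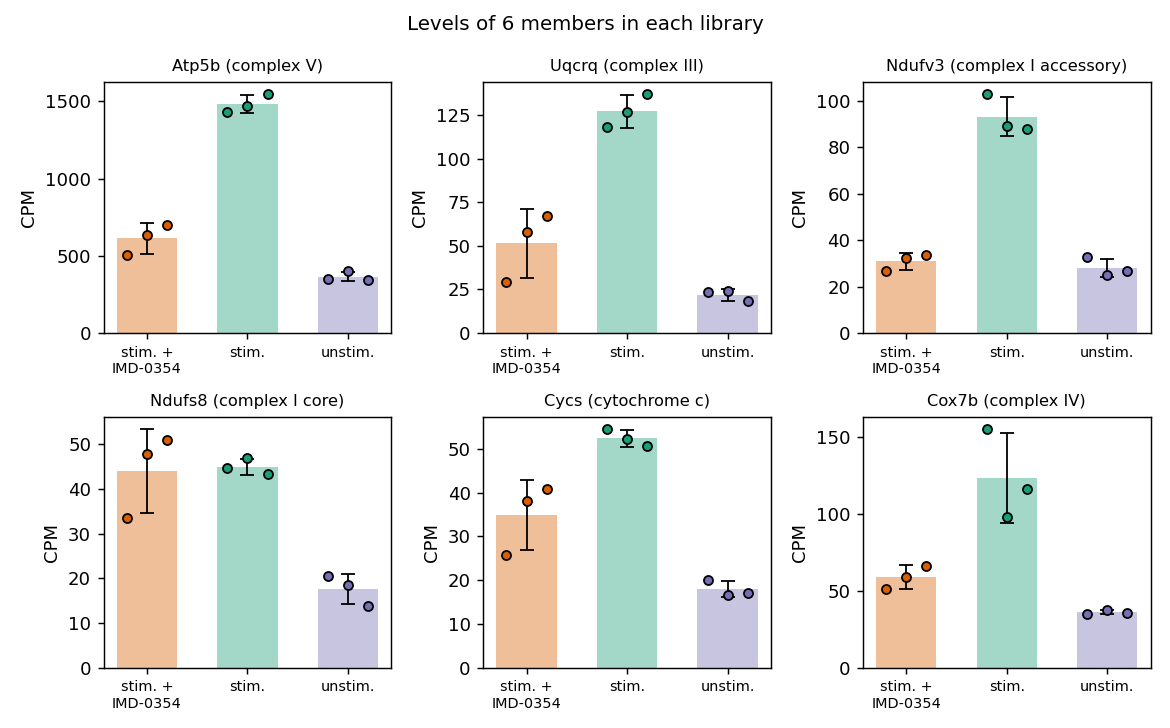
CPM of 6 members in each library (points, libraries 1 to 3 from left to right), with group means as bars from 0 and SD as error lines, n = 3 libraries a group. Ndufv3 in IMD-0354 cultures is near the unstimulated cells, Ndufs8 near the stimulated cultures, and the other 4 between the groups.

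Complex IV, cytochrome c oxidase, summed to 351 ± 89.7 CPM over 6 members in IMD-0354 cultures, 679 ± 12.7 in stimulated cultures and 252 ± 32.1 in unstimulated cells. All 6 rose with stimulation by at least 2-fold (median 1.45) and all 6 fell with IMD-0354 (median -0.94). The fall of Ndufa4 was not called without stimulated library 1 (-0.72, edgeR adjusted p = 0.0513). With IMD-0354, 3 members were above the unstimulated level, or 5 without IMD-0354 library 1. That count was 2 without IMD-0354 library 2 or 3 or unstimulated library 1 or 3. Cox5a had 40.6, 66.3 and 72.7 CPM in IMD-0354 cultures, 97.1, 124 and 143 CPM in stimulated cultures and 33.8, 33.4 and 26.1 CPM in unstimulated cells. It had the largest rise of the complex, 1.97 ± 0.22, and no overlap between groups. Cox4i1, a structural subunit with a regulatory role, had 60.8, 115 and 127 CPM in IMD-0354 cultures, 150, 202 and 194 CPM in stimulated cultures and 101, 89.4 and 77.8 CPM in unstimulated cells. IMD-0354 library 1 was below, and libraries 2 and 3 above, the unstimulated cells. The difference was 0.17 ± 0.24 with library 1 and 0.44 (edgeR adjusted p = 0.031) without it. Ndufa4 had 23.4, 42.4 and 44.5 CPM in IMD-0354 cultures, 61.5, 60.7 and 59.8 CPM in stimulated cultures and 29.3, 25.6 and 21.9 CPM in unstimulated cells, and here library 1 lay inside the unstimulated range. Without that library it was above the unstimulated level by 0.77 (adjusted p = 0.000754), against 0.52 ± 0.21 with it (adjusted p = 0.0616).

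Cox6c and Cox7b, small subunits of complex IV, had their highest value in stimulated library 1, while Cox5b was lowest of its group there (89.0, 102 and 93.9 CPM in stimulated libraries 1 to 3). Cox6c had 31.5, 44.7 and 48.5 CPM in IMD-0354 cultures, 140, 79.4 and 69.5 CPM in stimulated cultures and 38.4, 33.0 and 25.6 CPM in unstimulated cells. It had the largest fall of the complex with IMD-0354 in the full fit, -1.21 ± 0.27, and overlapped the unstimulated cells there. Leaving out single libraries put this fall between -1.40 and -0.84, and that of Cox5a between -1.19 and -0.81, so the ranges overlapped. Cox7b, 1 of the 2 members on the X chromosome, had 51.2, 59.2 and 66.5 CPM in IMD-0354 cultures, 155, 98.3 and 116 CPM in stimulated cultures and 34.8, 37.7 and 35.9 CPM in unstimulated cells. The groups did not overlap, with changes of 1.77 ± 0.16, -1.06 ± 0.16 and 0.71 ± 0.16 in the 3 comparisons.

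Ndufa1, the other X-linked member, is an accessory subunit of complex I that is essential for its assembly. It had 12.1, 18.5 and 25.2 CPM in IMD-0354 cultures, 25.5, 24.1 and 28.7 CPM in stimulated cultures and 18.4, 15.1 and 11.9 CPM in unstimulated cells. The IMD-0354 libraries spanned the range from the unstimulated to the stimulated values. Their difference from stimulated cultures (-0.49 ± 0.24, edgeR adjusted p = 0.132) was called without IMD-0354 library 3 (-0.77, adjusted p = 0.0261). Their difference from unstimulated cells was called without IMD-0354 library 1 (0.53, adjusted p = 0.0465). Ndufa1 rose by 0.79 ± 0.25 with stimulation (edgeR adjusted p = 0.0164). This call was lost without unstimulated library 3 (adjusted p = 0.0583) or stimulated library 3 (adjusted p = 0.0549). The same call for Ndufa2 (0.92 ± 0.32) was lost without either of these libraries, without unstimulated library 2 and without stimulated library 1. The counts are not split by allele, so which X chromosome the RNA came from was not analysed here.

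Complex V, the ATP synthase, was the largest contributor to the sum. Its 4 members, all of the catalytic head and the stalk parts that join it to the membrane, summed to 1064 ± 155 CPM in IMD-0354 cultures, 2274 ± 68.7 in stimulated cultures and 672 ± 42.9 in unstimulated cells. All 4 rose with stimulation by at least 2-fold (median 1.33), all 4 fell with IMD-0354 (median -0.79) and all 4 were above the unstimulated level with it (median 0.55). Atp5b (ENSMUSG00000025393, chromosome 10, 128083273 to 128090391, plus strand), the catalytic beta subunit, had 505, 633 and 700 CPM in IMD-0354 cultures, 1429, 1469 and 1546 CPM in stimulated cultures and 349, 399 and 345 CPM in unstimulated cells. No libraries overlapped between the groups. Its log2 fold change was 2.02 ± 0.12 for stimulated against unstimulated (edgeR adjusted p = 4.66e-07), -1.27 ± 0.12 for IMD-0354 against stimulated (adjusted p = 2.98e-05) and 0.75 ± 0.12 for IMD-0354 against unstimulated (adjusted p = 0.000492). Atp5a1, the alpha subunit, rose by 1.53 ± 0.09 and fell by 0.94 with IMD-0354. Atp5c1, the gamma subunit that turns within the head, had 90.8, 106 and 123 CPM in IMD-0354 cultures, 156, 153 and 155 CPM in stimulated cultures and 76.5, 77.4 and 69.0 CPM in unstimulated cells. Its changes, 1.06 ± 0.11 and -0.54 ± 0.10, were the smallest of the complex, with no overlap between groups. Atp5o, a stalk subunit, rose by 1.12 ± 0.11 and fell by 0.64 with IMD-0354.

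**Figure D4:**
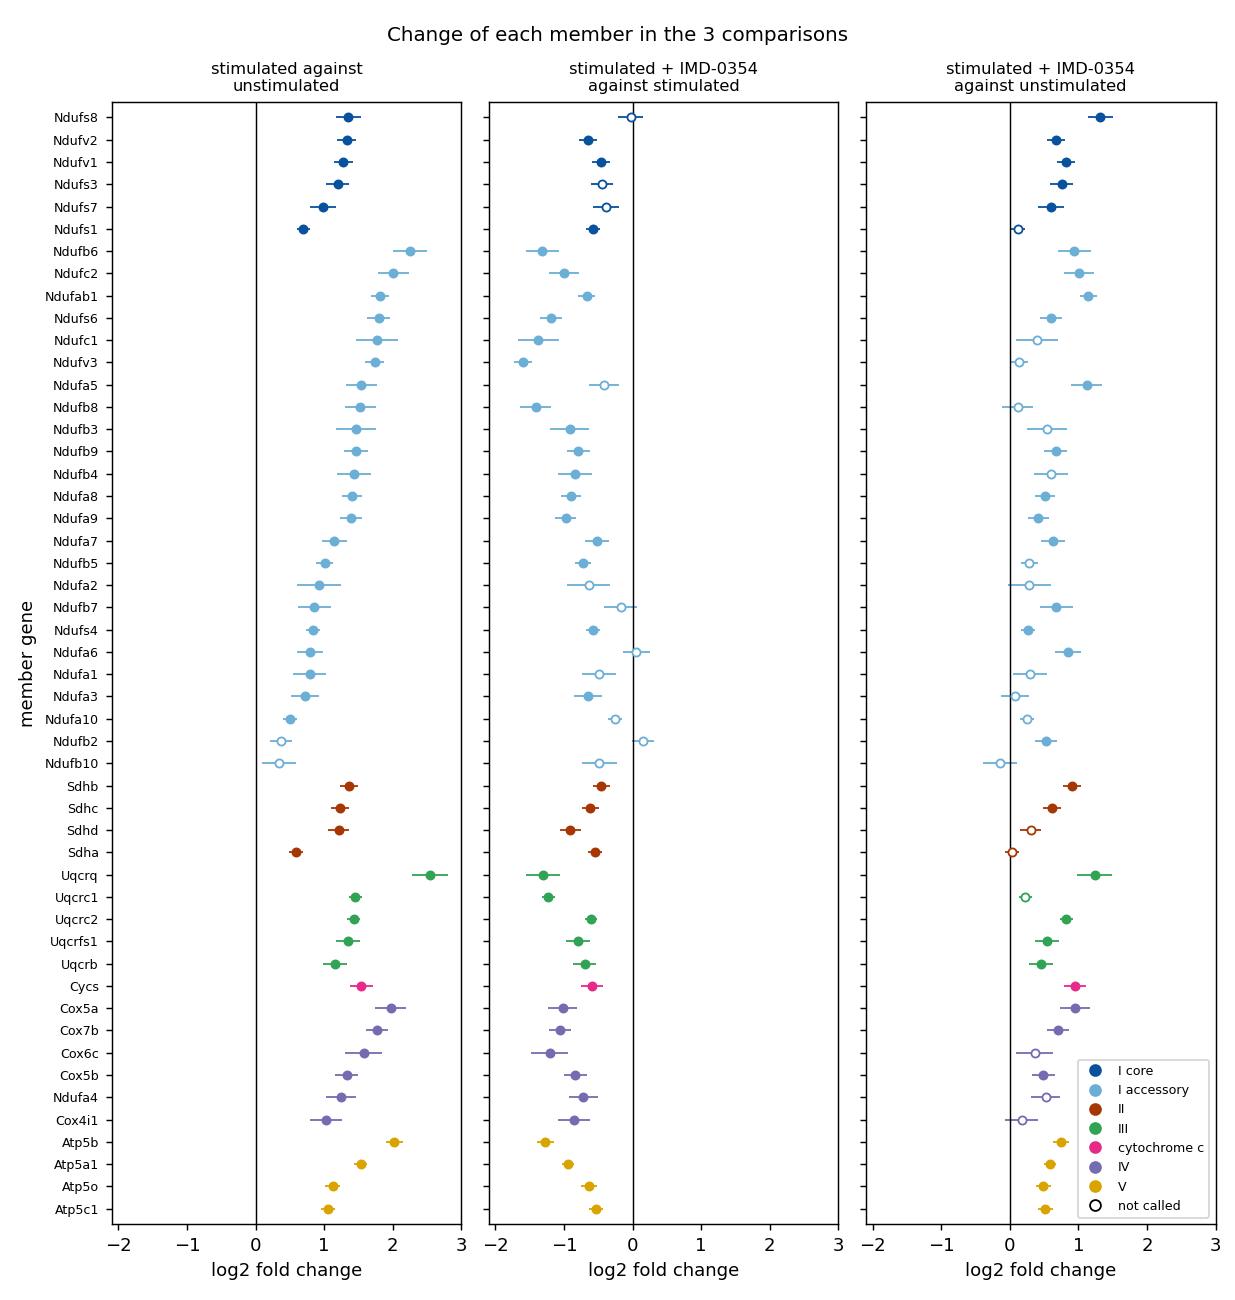
log2 fold change of each member with its approximate SE in the 3 comparisons, one row a member, coloured by complex, with open points where the edgeR call was not made. Every point of the first panel is above 0, all but 2 of the second are below 0, and all but 1 of the third are above 0.

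The spread within a group differed between groups. The coefficient of variation over the 3 libraries had a median over the members of 19.64% in IMD-0354 cultures, 7.6% in stimulated cultures and 11.03% in unstimulated cells. The members at IMD-0354 library 3 were the highest of their group in 44 of 50 cases. In stimulated cultures 18, 12 and 20 members were highest in libraries 1, 2 and 3, so no library led there.

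Other subunits of the same complexes, 30 genes in the table that are not members, had calls in the same directions with a few exceptions. With stimulation 28 rose and 1 fell (median 1.42), with IMD-0354 21 fell and 1 rose against stimulated cultures (median -0.84), and 15 were above the unstimulated level with it (median 0.56). Among all genes 32.0% rose and 34.0% fell with stimulation, 22.8% fell and 21.7% rose with IMD-0354, and 26.3% were above the unstimulated level. Without IMD-0354 library 1, 19 of the 30 fell and 1 rose against stimulated cultures, and 22 were above the unstimulated level. In that fit 20.2% of all genes fell and 25.1% were above the unstimulated level. Ndufa12, an accessory subunit of complex I, had the largest rise, at 30.4, 27.8 and 30.2 CPM in IMD-0354 cultures, 58.3, 53.6 and 49.9 CPM in stimulated cultures and 12.2, 12.4 and 10.9 CPM in unstimulated cells (2.19 ± 0.11 with stimulation). Atpif1, an inhibitor protein of ATP synthase counted with its subunits, had the largest fall with IMD-0354, at 20.3, 19.0 and 22.5 CPM in IMD-0354 cultures against 84.2, 69.9 and 69.1 CPM in stimulated cultures (-1.85 ± 0.32). Cox7a2l, which helps join complexes III and IV into supercomplexes, went the other way. It was at 96.0, 99.96 and 93.2 CPM in IMD-0354 cultures, 68.8, 56.1 and 58.2 CPM in stimulated cultures and 104, 82.0 and 109 CPM in unstimulated cells, with changes of -0.69 ± 0.12 with stimulation and 0.66 ± 0.12 with IMD-0354 against stimulated cultures.

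Genes for assembly factors, which build the complexes without staying in them, had medians nearer to 0 than the members with stimulation and with IMD-0354 against stimulated cultures. Of 48 tested 32 rose and 0 fell with stimulation (median 0.73), 15 fell and 3 rose with IMD-0354 against stimulated cultures (median -0.18), and 29 were above the unstimulated level with it (median 0.51). Among all genes 32.0% rose and 34.0% fell with stimulation, 22.8% fell and 21.7% rose with IMD-0354, and 26.3% were above the unstimulated level. The median of -0.18 was -0.10 without IMD-0354 library 1 and -0.11 without stimulated library 1. The 3 called higher were 1 without stimulated library 1 and 0 without stimulated library 2 or 3 or IMD-0354 library 2. Uqcc2, for complex III, had 12.2, 20.0 and 18.6 CPM in IMD-0354 cultures, 38.8, 40.9 and 40.3 CPM in stimulated cultures and 8.96, 10.0 and 8.51 CPM in unstimulated cells, with the largest changes of the list in both directions (2.12 ± 0.18 and -1.23 ± 0.17). Sco1, a copper chaperone of complex IV, stayed 1.52 ± 0.14 above the unstimulated level with IMD-0354.

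Of 14 regulators of respiratory genes 7 rose and 3 fell with stimulation, beside 32.0% of all genes that rose and 34.0% that fell. With IMD-0354 against stimulated cultures 4 fell and 1 rose, beside 22.8% of all genes that fell and 21.7% that rose. The 3 that fell with stimulation were 5 without unstimulated library 2, and the 4 that fell with IMD-0354 were 2 without IMD-0354 library 2 or stimulated library 2 or 3. Myc, a growth-linked transcription factor, had 285, 273 and 291 CPM in IMD-0354 cultures, 370, 423 and 352 CPM in stimulated cultures and 88.1, 89.2 and 86.8 CPM in unstimulated cells (2.12 ± 0.08 with stimulation, -0.43 ± 0.08 with IMD-0354 against stimulated cultures). The nuclear receptor gene Esrra had the largest fall with IMD-0354, at 10.5, 14.5 and 13.2 CPM in IMD-0354 cultures against 20.5, 29.5 and 30.2 CPM in stimulated cultures (-1.07 ± 0.18). Ppargc1b, a coactivator, had the largest called fall with stimulation among regulators with a mean of at least 10 CPM (-0.83 ± 0.15). Below that level 1 regulator was called lower by at least 2-fold with stimulation, where the lowest value of the list was -7.76. Another such call, 1 regulator higher with IMD-0354 against stimulated cultures, was also below that level (highest value of the list 7.83). Whether these genes bear on the members was not tested.

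The mitochondrially encoded subunits, transcribed inside the organelle, moved in another direction with the inhibitor. Their sum was 25833 ± 747 CPM in IMD-0354 cultures, 14882 ± 1356 in stimulated cultures and 10277 ± 1768 in unstimulated cells. Of the 7 with a mean over 10 CPM, 5 rose and 0 fell with IMD-0354 against stimulated cultures (median 1.05), 7 rose against unstimulated cells (median 1.34), and 2 rose with stimulation (median 0.21). Over all tested genes 21.7% rose and 22.8% fell in the first comparison, 26.3% rose in the second and 32.0% rose with stimulation. The 7 included mt-Nd6, which rose with stimulation (1.95), and the other gene that rose was mt-Co1. The median with stimulation was -0.015 without stimulated library 2, -0.005 without unstimulated library 3, 0.32 without stimulated library 1, 0.54 without unstimulated library 1 and -0.008 with upper-quartile factors, so its sign was not stable. The value of mt-Nd1, a core subunit of complex I, was 1996, 2476 and 2698 CPM in IMD-0354 cultures, 931, 1411 and 938 CPM in stimulated cultures and 1292, 910 and 627 CPM in unstimulated cells, so the IMD-0354 libraries were above all others. The largest share came from mt-Co1, of complex IV, at 18294, 14738 and 14441 CPM in IMD-0354 cultures, 10375, 9531 and 9098 CPM in stimulated cultures and 6286, 6013 and 5714 CPM in unstimulated cells. It rose in each comparison (0.69 ± 0.13 with stimulation and 0.71 ± 0.13 with IMD-0354 against stimulated cultures). Nuclear copies of mitochondrial sequence can share reads with these genes. The strand setting of the counting is not given in the sources used here, so mt-Nd6, which lies opposite to the others, cannot be told apart from their reads. The calls of mt-Nd6 counted above share this limit.

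**Figure D5:**
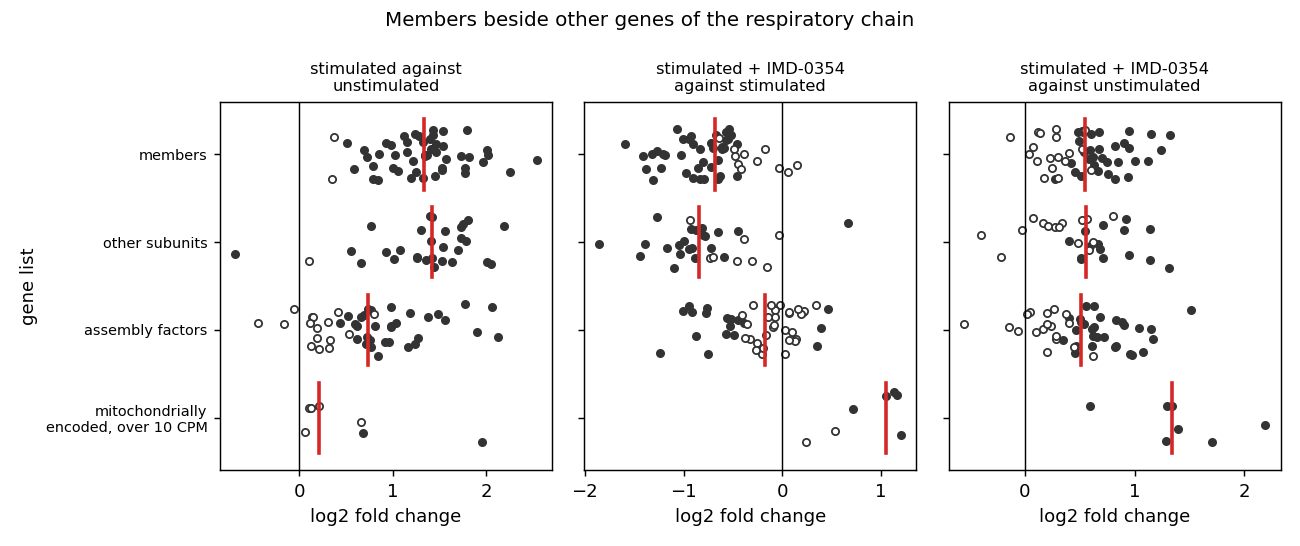
log2 fold change of each gene in 4 lists and in the 3 comparisons, with filled points for genes called by edgeR, open points for the others and a red line at each list's median; vertical scatter only separates points. In the middle panel (IMD-0354 against stimulated) the medians are -0.68 for the members, -0.84 for other subunits, -0.18 for assembly factors and 1.05 for the mitochondrially encoded genes.

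Markers of other cells moved with the groups. B cell markers summed to 149 CPM in each IMD-0354 library, 67.2 to 76.1 CPM in stimulated cultures and 520 to 1380 CPM in unstimulated cells, with 8 of 8 lower after stimulation and 5 of 8 higher with IMD-0354 against stimulated cultures. Myeloid and dendritic cell markers summed to 27.9 to 49.1 CPM in IMD-0354 cultures, 18.9 to 26.0 CPM in stimulated cultures and 1152 to 3033 CPM in unstimulated cells, with 11 of 11 lower after stimulation, and in stimulated libraries 1 and 2 S100a8 and S100a9 had 0 counts. With IMD-0354 against stimulated cultures 4 of the 11 were higher and 1 lower. NK cell markers summed to 36.6 to 51.4 CPM in IMD-0354 cultures, 55.2 to 63.0 CPM in stimulated cultures and 255 to 304 CPM in unstimulated cells, with 6 of 6 lower after stimulation and, with IMD-0354 against stimulated cultures, 5 of 6 lower and 1 higher. Erythroid and platelet markers summed to 0.479 to 9.27 CPM in IMD-0354 cultures, 1.59 to 5.36 CPM in stimulated cultures and 35.7 to 905 CPM in unstimulated cells, with 7 of 9 lower after stimulation. Unstimulated library 2 had the highest B cell, myeloid and erythroid sums, and without it 47 members rose with stimulation, beside 30.1% of all genes. The part of other cells in the members' levels was not tested. In these bulk samples a change in the RNA per cell and a change in which cells are present cannot be told apart.

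For most members the search found no annotated near copy. More distant, shorter or unannotated copies were not covered by it. Copies of at least 95% identity over at least 50% of the transcript were annotated for 3 members, Ndufs3, Uqcrb and Atp5o, and held at most 1.6% of the member's own count. An annotated gene on the opposite strand overlaps 19 members, Ndufs1, Ndufv2, Ndufb2, Ndufb6, Cox4i1, Cox5a and Cox6c among them, and for these reads of both strands may be mixed. On the same strand an annotated gene overlaps 9 members (Ndufa10, Ndufb2, Ndufb8, Ndufb9, Ndufc2, Cox4i1, Atp5b, Atp5c1 and Atp5o). How far such overlaps affected the counts was not tested.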

How the data were processed

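The deposited file is a table of raw read counts per gene for 9 libraries and 49671 genes, unnormalized as far as its values show. Per the labels' protocols the libraries were made from total RNA with a stranded Illumina kit that removes ribosomal RNA. Per the submitters' processing notes STAR 2.7.1a, featureCounts and mm10 were used. For the annotation release, strand setting and treatment of mates, nothing is stated (not given in the sources used here). Even numbers made up 70.6% to 78.5% of counts from 1 to 10, a sign that both mates were often counted. Reads of castaneus alleles were mapped to a C57BL/6 genome, which can lower counts where the alleles differ.

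Of the gene identifiers 49412 were found in GENCODE M21. Genes were kept by filterByExpr of edgeR 4.0.16 (R 4.3.3), which left 18374, and scaled by TMM factors (0.926 to 1.122). The quasi-likelihood model took all 9 libraries with no term but the group, which left 6 residual degrees of freedom. Its two-sided p-values received a Benjamini-Hochberg adjustment across the tested genes, with a threshold of 0.05. The SE printed beside a log2 fold change is its size over the square root of the F statistic, an approximation. Between libraries of a group the chi-square statistic was 30.0 or more for each degree of freedom, far above sampling noise, so each counted as 1 sample. Near copies of members were sought with blastn 2.17.0. The alternatives were upper-quartile and RLE factors, DESeq2 1.42.0, limma 3.58.1 (voom), other filters, fits of only the 2 groups compared, the replicate number as a block, and leaving out each library. Another 2, which use library totals in place of scaling factors (with and without Gm26917 and Gm42418, which held 11.3% to 17.4% of the counts), were chosen after seeing the data. No column of the table was left unused.

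The members, the lists and the rule for named genes were chosen with earlier results of these data known. Values are given in every library for the members with the largest and the smallest log2 fold change of each complex in stimulated against unstimulated and in IMD-0354 against stimulated, for Cycs, for the X-linked members, and for members not called where over 3 in 4 were called (at most 6 of these, by level). Of other lists, the text names the largest called changes among genes with a mean of at least 10 CPM. Other members are named as further examples chosen after their values were seen (Ndufb8, Ndufc1, Ndufab1, Ndufa2, Uqcrc1, Atp5a1, Atp5o, mt-Nd1 and mt-Co1).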

Additional observations from a re-analysis of the deposited data

How the results depend on the processing

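With stimulation against unstimulated cells, 46 to 48 of the 50 members rose and 0 fell under each alternative run, and their median log2 fold change stayed between 1.12 and 1.38. It was 1.34 in the fit reported, 1.117 with upper-quartile factors, 1.146 with genes of a mean of at least 10 CPM (48 members tested) and 1.146 with library totals alone. Upper-quartile factors moved the median of all genes from -0.05 to -0.27 in that comparison and from 0.031 to 0.164 in IMD-0354 against stimulated, and the members' medians moved with it. With IMD-0354 against stimulated cultures 34 to 44 members fell and 0 rose, and against unstimulated cells 22 to 42 rose. Leaving out each library in turn gave 46 to 48 members higher with stimulation (median 1.256 to 1.38), 34 to 42 lower with IMD-0354 against stimulated cultures (median -0.79 to -0.583) and 22 to 42 higher with IMD-0354 against unstimulated cells (median 0.423 to 0.711). DESeq2 gave 48, 41 and 30 for these calls and limma voom 48, 40 and 31.

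Members named in the text changed sign in 21 instances, in each of which neither fit called them. Leaving out single libraries put Ndufs8 between -0.1519 and 0.1327, Ndufb7 between -0.336 and 0.0474 and Ndufa6 between -0.0751 and 0.2682 in IMD-0354 against stimulated, and Cox4i1 between -0.0229 and 0.4378, Ndufb10 between -0.3496 and 0.1214 and Sdha between -0.0381 and 0.1325 in IMD-0354 against unstimulated. In the first of these comparisons Ndufs8 was at 0.093 with upper-quartile factors, 0.0079 with genes of at least 10 CPM, 0.0413 with library totals and 0.0391 with totals without Gm26917 and Gm42418, and Ndufa6 at -0.0612 without IMD-0354 library 3. In the second, Sdha was at -0.056 with upper-quartile factors, -0.0155 with RLE factors, -0.0154 with DESeq2, -0.1117 with genes of at least 10 CPM, and -0.0728 and -0.0376 with the 2 kinds of library totals. With genes of at least 10 CPM Ndufs1 was at -0.0233 and Ndufv3 at -0.0096. Ndufb10 was at 0.0326 without unstimulated library 1. The causes were not tested. Of 5 called values that moved by over 1.5 times when 1 library was left out, in IMD-0354 against stimulated Ndufb4 was at -0.50 without stimulated library 1, against -0.84 with it (edgeR adjusted p = 0.0801 without), and without IMD-0354 library 1 Ndufa3 was at -0.42 (against -0.65) and Ndufa7 at -0.32 (against -0.52), both still called. Against unstimulated cells, Ndufa8 was at 0.33 (against 0.51) and Ndufa9 at 0.25 (against 0.42) without IMD-0354 library 3, and both calls were lost.

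Replicate numbers are shared between groups. Between same-numbered IMD-0354 and stimulated libraries, deviations from the group means correlated over genes by 0.144, 0.107 and 0.0782. In these 2 groups each library correlated best with its own number. The values were 0.00469, -0.0128 and -0.0148 for stimulated and unstimulated, and -0.0826, -0.194 and -0.0388 for IMD-0354 and unstimulated. The main fit of all 3 groups did not take the numbers as pairs. A paired fit of IMD-0354 and stimulated cultures alone was not run. With the replicate number as a block 48 members rose with stimulation (median 1.331), 37 fell with IMD-0354 against stimulated cultures (median -0.677) and 30 were above unstimulated cells (median 0.525).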
